A study of Mus musculus with 24 samples.

Results

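Transcripts of 10 genes of fat storage and release were followed in mouse liver: the lipid droplet proteins Plin2, Plin4, Plin5, Cidea, Cideb and Cidec, the lipase gene Pnpla2, the lipase inhibitor gene G0s2, the acyltransferase gene Mogat1 and the nuclear receptor gene Pparg. The genes were picked by symbol on the array, and all 10 were found among the 18193 genes measured. They were read by 12 probe sets. Plin5 and Pnpla2 had 2 each and the other 8 genes had 1, and the brightest probe set of a gene gave its main value. Male BALB/c mice were obtained at 6 weeks of age and kept 3 per cage. The control group of 6 ate AIN93G, a purified rodent diet, for 14 days, and 3 other groups of 6 ate AIN93G with 0.1%, 0.5% or 1.0% quercetin, a flavonol of plant foods. All groups carried the same background and differed, per the labels, only in quercetin. The liver of each mouse was measured on 1 Affymetrix array. Cage numbers were not used here, so cage and diet cannot be told apart.

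Liver cells keep surplus fatty acids as triglyceride in lipid droplets, which are wrapped by perilipins (the Plin genes) and enlarged by CIDE proteins, which pass lipid from one droplet to another. Adipose triglyceride lipase, the product of Pnpla2, makes the first cut in stored triglyceride, G0S2 blocks that enzyme, and perilipin 5 holds it at the droplet. PPAR-gamma is scarce in lean liver and more abundant in fatty liver, where Cidec, Cidea and Mogat1 are among its known targets.

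Values below are log2(intensity + 1) after quantile normalization between arrays, so that 1 unit is a doubling. For dim genes, the size of a difference depends on the 1 added before the logarithm. A value below 3.21, the median of all probe sets used, is called near the floor. Before normalization the array medians lay between 4.78 and 7.58 in linear intensity, not log2. How precise a group mean can be depends on the number of arrays and on the spread between them. Of 5 hepatocyte markers measured, Alb, Apoa1 and Ttr lay between 13.06 and 13.4 on every array, near the top of the scale. The others varied more, Cps1 from 11.53 to 12.2 and Tat from 9.36 to 11.27. On the first principal component, which held 9.15% of the variance of all genes, 4 arrays stood apart at 45.4 to 64.2, while the other 20 reached at most 5.99. They are replicates 4 and 6 of the 0.5% group and replicates 4 and 5 of the 1.0% group. The main differences of the members are given with and without them. In bulk liver, fewer cells of a type and less RNA per cell cannot be told apart.

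The place of each probe set in the signal of the array sets how well its gene can be read, and does not rank the transcripts. The signal of Plin2 exceeded 99.6% of probe sets, that of Cideb 98.5%, that of G0s2 97.9%, that of Plin5 94.2% and that of Pnpla2 86.1%. Mogat1 was near the floor on 4 of 24 arrays, Pparg on 9, Plin4 on 13, Cidec on 17 and Cidea on 23. Among the 10 genes the spread over arrays was widest for Cidec, with a range of 6.49 and an SD of 1.6, and for G0s2, with a range of 4.93 and an SD of 1.29. Cideb had the narrowest range of the 10, at 0.52.

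No member passed limma's moderated test at an adjusted p of 0.05 in any of 8 comparisons. Against control, 0 of 10 passed at 0.1%, where 0% of all genes passed, at 0.5% (0.0165% of genes) and at 1.0% (0.022%). Between doses, 0 of 10 passed for 0.5% against 0.1% (0.214% of genes), 1.0% against 0.1% (0.253%) and 1.0% against 0.5% (0.022%). The test of any difference among the 4 diets (0.181% of genes) and the slope over dose (0.0989%) also passed 0 of 10. At an unadjusted p under 0.05, the counts of members were 0 of 10 at 0.1% (5.11% of all genes), 2 at 0.5% (7.65%) and 5 at 1.0% (8.92%) against control. They were 2 for 0.5% against 0.1% (10.1% of genes), 5 for 1.0% against 0.1% (9.42%), 2 for 1.0% against 0.5% (6.19%), 5 for any difference (9.49%) and 6 for the slope (10.9%). The 5 members at 1.0% against control were Cidea, Cidec, Plin2, Plin5 and Pnpla2, all with higher means at 1.0%, and these are also the 5 for 1.0% against 0.1%, a comparison that uses the same 1.0% arrays. Comparisons that have a diet in common share its 6 arrays.

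At 1.0%, 7 members lay above the control mean and 3 below it (Cideb, G0s2 and Mogat1), with a median difference of 0.47. Over all genes 48.4% lay above, with a median of -0.00991. No member's sign at 1.0% turned with the scaling of the arrays. At 0.1%, 3 lay above and 7 below (median -0.1, against 0.0121 over all genes), and at 0.5% 5 lay above and 5 below (median 0.11, against -0.0211). With the 4 arrays apart left out, 0 of 10 members passed in the 8 comparisons. The members at an unadjusted p under 0.05 were then Pnpla2 and G0s2 at 1.0% against control (8.11% of all genes), and 0 at 0.5% (5.13%) and at 0.1% (5.94%). They were Cidec, Plin5 and Pparg for 1.0% against 0.1% (8.28% of genes), and Plin5, Pnpla2, Pparg and G0s2 for the slope (8.42%). For 0.5% against 0.1% (7.03% of genes), 1.0% against 0.5% (6.35%) and any difference among the 4 diets (7.74%) the count was 0.

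**Figure D1:**
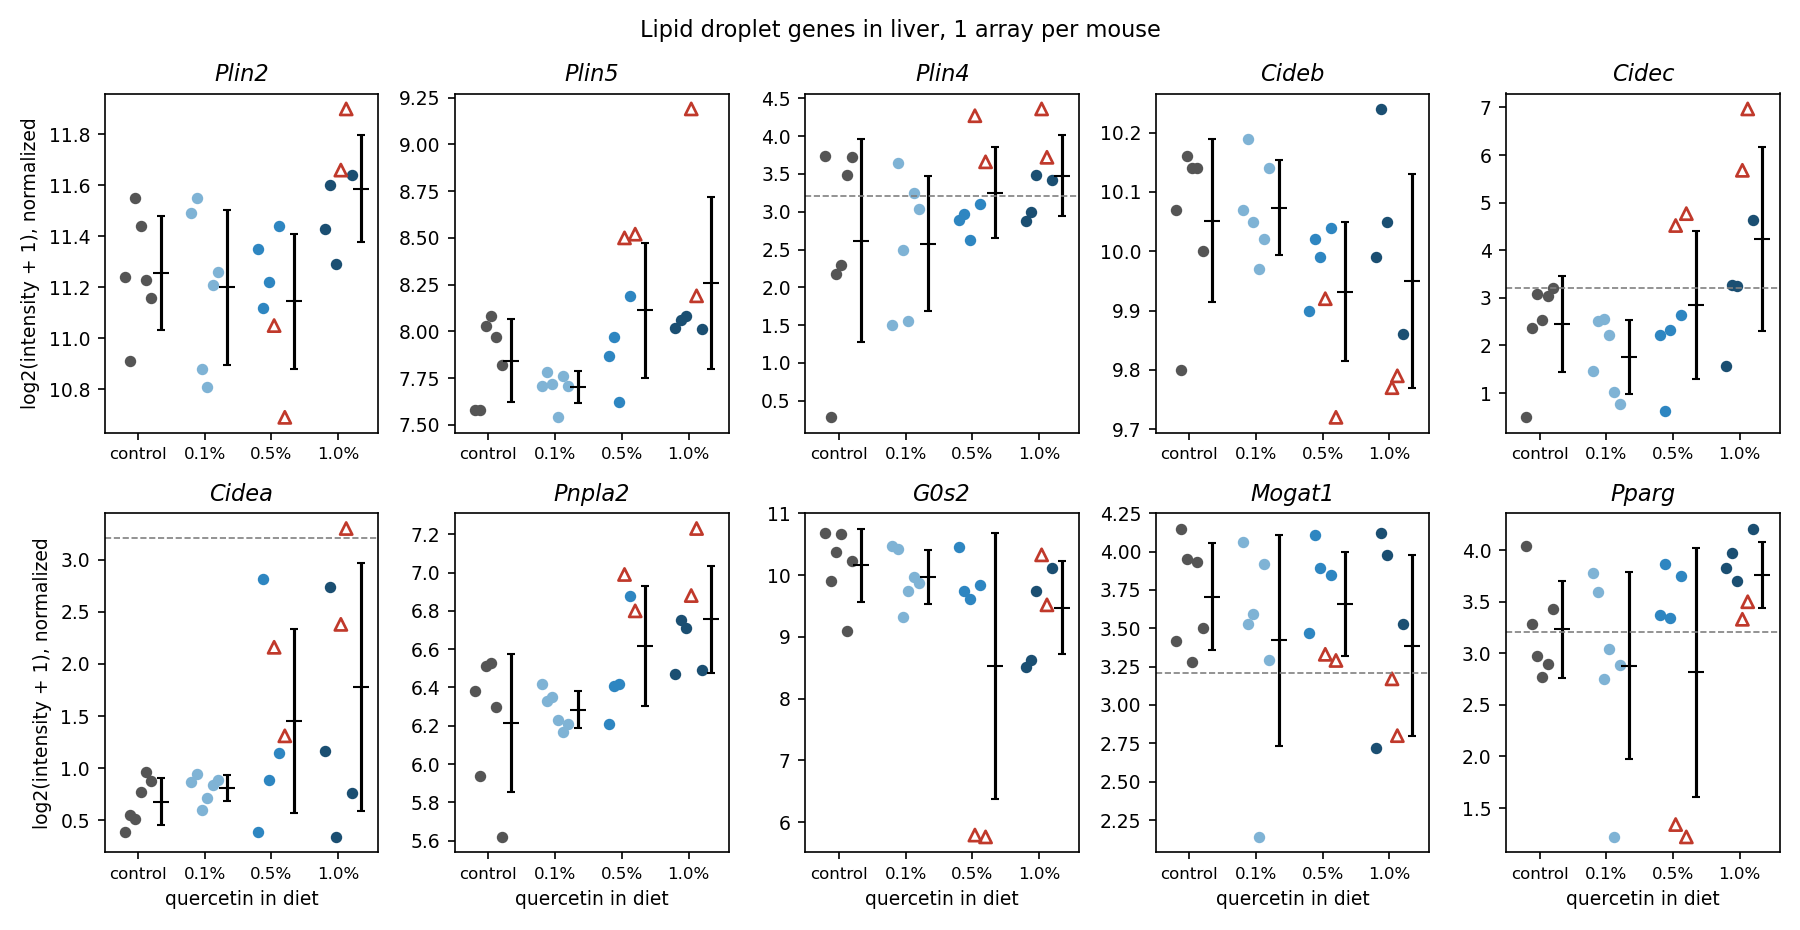
Each panel plots 1 gene, with quercetin in the diet on the x axis and normalized log2(intensity + 1) on the y axis, on a scale of its own. Points are arrays (6 per group), red triangles the 4 arrays apart, black marks the mean and SD, and the dashed line the near-floor level of 3.21. Plin5 and Pnpla2 lie higher in all 6 arrays at 1.0% than in all 6 at 0.1%, and G0s2 is below 6 on 2 arrays of the 0.5% group.

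Pnpla2 had the smallest p of the members in the slope test and against control at 1.0%. Its main probe set ran from 5.62 to 6.53 in control (median 6.34) and from 6.17 to 6.42 at 0.1% (median 6.28). It ran from 6.21 to 6.99 at 0.5% (median 6.61) and from 6.47 to 7.23 at 1.0% (median 6.73). The 1.0% group thus lay wholly above the 0.1% group and overlapped control. Its slope was 0.55 per 1% quercetin (SE 0.145, 95% interval 0.26 to 0.85, adjusted p = 0.116), rank 127 of the 18193 genes. At 1.0% it was 0.54 above control (SE 0.165, fold 1.45, adjusted p = 0.365), from a mean of 6.21 ± 0.36 to 6.75 ± 0.279 (SD, n = 6). At 0.5% it was 0.4 above control (SE 0.165, adjusted p = 0.572), and 0.27 (SE 0.165) in the 20 other arrays. Leaving out the 4 arrays apart gave a slope of 0.39 (SE 0.143, adjusted p = 0.43) and a difference at 1.0% of 0.39 (SE 0.165, adjusted p = 0.562). The second probe set had a mean of 2.04, near the floor, and its difference at 1.0% was 0.42 (SE 0.426). With limma's trended and robust variance, the slope of Pnpla2 passed (adjusted p = 0.0454).

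G0s2, whose protein inhibits the Pnpla2 lipase, was split within 1 group. At 0.5%, replicates 4 and 6 stood at 5.79 and 5.76, and the other 4 arrays of that diet between 9.62 and 10.45. Control arrays ran from 9.1 to 10.69 (median 10.3), 0.1% arrays from 9.32 to 10.47 (median 9.92) and 1.0% arrays from 8.52 to 10.33 (median 9.64). The 2 low arrays are both among the 4 apart, but the other 2 of those, at 1.0%, stood at 10.33 and 9.52. The difference from control at 0.5% was -1.63 (SE 0.664, fold 0.323, adjusted p = 0.572), and -0.25 (SE 0.349) with the 4 arrays left out. At 1.0% it was -0.68 with all arrays (SE 0.664, adjusted p = 0.821) and -0.91 without the 4 (SE 0.349, adjusted p = 0.526). Replicates 1 and 2 at 1.0% were the lowest arrays of that diet, at 8.52 and 8.63.

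Among the perilipins, Plin5, which ties lipase and mitochondria to droplets in fat-burning tissues, was the one with the smallest p for the slope. It ran from 7.58 to 8.08 in control (median 7.89), 7.54 to 7.78 at 0.1% (median 7.71), 7.62 to 8.52 at 0.5% (median 8.08) and 8.01 to 9.19 at 1.0% (median 8.07). Every 1.0% array was above every 0.1% array, and 2 control arrays (8.03 and 8.08) lay within the 1.0% range. Plin5 and Pnpla2 were the 2 members of 10 without overlap between 1.0% and 0.1%, a pattern of 1.06% of all genes. Between 1.0% and control 0 members had it, against 0.797% of genes. The slope of Plin5 was 0.51 per 1% (SE 0.163, adjusted p = 0.21), and at 1.0% it was 0.56 above 0.1% (SE 0.183, adjusted p = 0.295) and 0.42 above control (SE 0.183, adjusted p = 0.513). Its second probe set gave 0.43 (SE 0.185) against control. Replicate 4 at 1.0% reached 9.19, and replicates 4 and 6 at 0.5% reached 8.5 and 8.52, all arrays apart. Without them the slope was 0.27 (SE 0.111, adjusted p = 0.502), the difference at 1.0% from 0.1% was 0.34 (SE 0.12, adjusted p = 0.403) and that from control 0.2 (SE 0.12).

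Plin2, the coat protein of droplets in most cells, was bright on every array. It ran from 10.91 to 11.55 in control (median 11.24), 10.81 to 11.55 at 0.1% (median 11.23), 10.69 to 11.44 at 0.5% (median 11.17) and 11.29 to 11.9 at 1.0% (median 11.62). The 1.0% arrays sat highest, with overlap with each other group. At 1.0% it was 0.33 above control (SE 0.15, fold 1.26, adjusted p = 0.531) and 0.44 above 0.5% (SE 0.15, adjusted p = 0.616). In the other 20 arrays these were 0.23 (SE 0.153) and 0.21 (SE 0.168). Plin4, which coats small droplets and is most abundant in fat tissue, ran from 0.28 to 3.74 in control and from 2.88 to 4.36 at 1.0%, and its 95% interval at 1.0% against control, -0.18 to 1.9, included 0 (adjusted p = 0.657). That difference was 0.86 (SE 0.5), and 0.58 (SE 0.564) with the 4 arrays left out. Its highest arrays, at 4.36 and 4.27, were replicate 4 at 1.0% and replicate 4 at 0.5%, both apart.

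**Figure D2:**
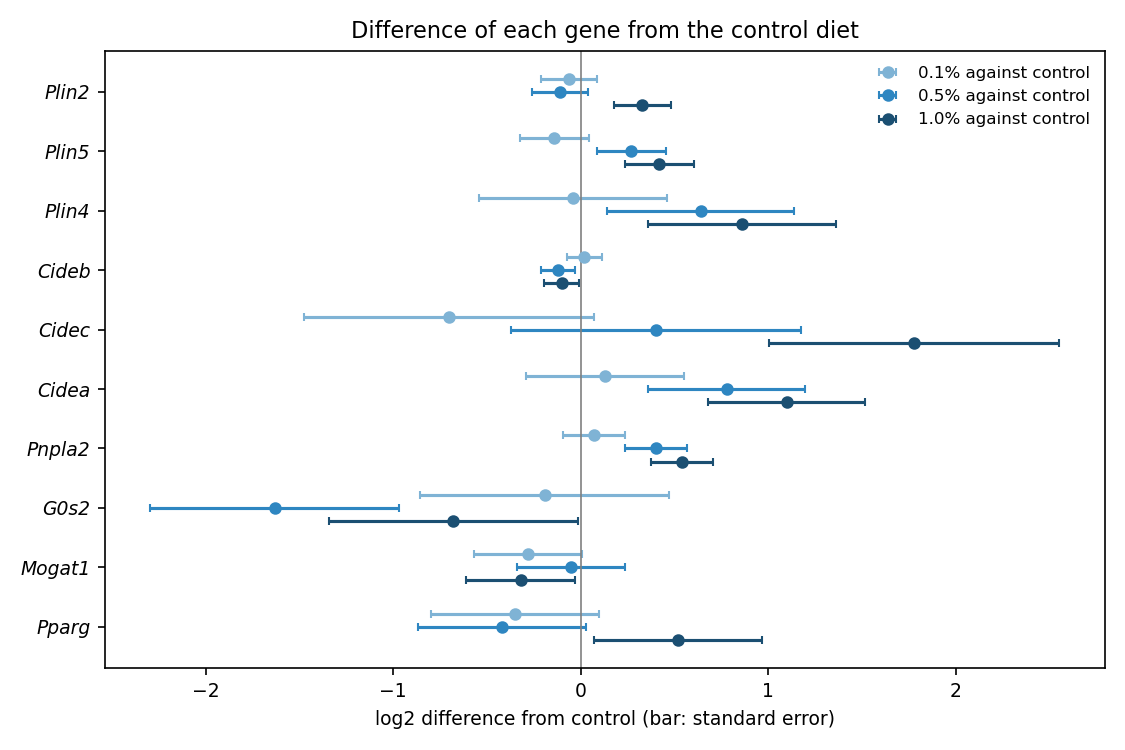
The x axis gives the log2 difference of each gene (y axis) from the control mean, with points for the 3 quercetin doses in 3 blues and bars for the SE from the fit over 24 arrays. At 1.0%, Cidec (1.78), Cidea (1.1) and Plin4 (0.86) lie farthest above 0 with wide bars, Pnpla2 (0.54) and Plin5 (0.42) have narrower ones, and G0s2 at 0.5% (-1.63) lies farthest below.

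The CIDE genes differed in level and spread. Cidec, which drives droplet fusion and is high in fat cells, ran from 0.49 to 3.2 in control (median 2.79), 0.77 to 2.55 at 0.1% (median 1.84), 0.62 to 4.77 at 0.5% (median 2.48) and 1.57 to 6.97 at 1.0% (median 3.96). All 12 control and 0.1% arrays were near the floor. The 5 arrays above 4 were replicates 4 and 6 at 0.5% (4.52 and 4.77) and replicates 4, 5 and 6 at 1.0% (5.68, 6.97 and 4.64), of which 4 are the arrays apart. At 1.0% Cidec was 1.78 above control (SE 0.773, fold 3.43, adjusted p = 0.51) and 2.48 above 0.1% (SE 0.773, adjusted p = 0.259), and its slope was 2.12 (SE 0.688, adjusted p = 0.218). In the 20 other arrays these were 0.73 (SE 0.604), 1.43 (SE 0.604) and 0.89 (SE 0.574), and the difference at 0.5% went from 0.4 to -0.5.

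Cidea, the CIDE gene of brown fat that appears in fatty liver, ran from 0.39 to 0.96 in control (median 0.66), 0.6 to 0.94 at 0.1% (median 0.85), 0.39 to 2.82 at 0.5% (median 1.23) and 0.34 to 3.3 at 1.0% (median 1.77). The only array above the near-floor level was replicate 5 at 1.0%, which also had the highest Cidec. Its difference at 1.0%, 1.1 (SE 0.419, adjusted p = 0.437), therefore compares values that are nearly all near the floor. Over the 20 other arrays it was 0.57 (SE 0.408). Cideb, the hepatocyte member, which helps load lipid onto secreted lipoproteins, ran from 9.8 to 10.16 in control and from 9.77 to 10.24 at 1.0%. Its difference at 1.0% was -0.1 (SE 0.0924), with a 95% interval of -0.29 to 0.09, and -0.02 (SE 0.0922) in the 20 other arrays.

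**Figure D3:**
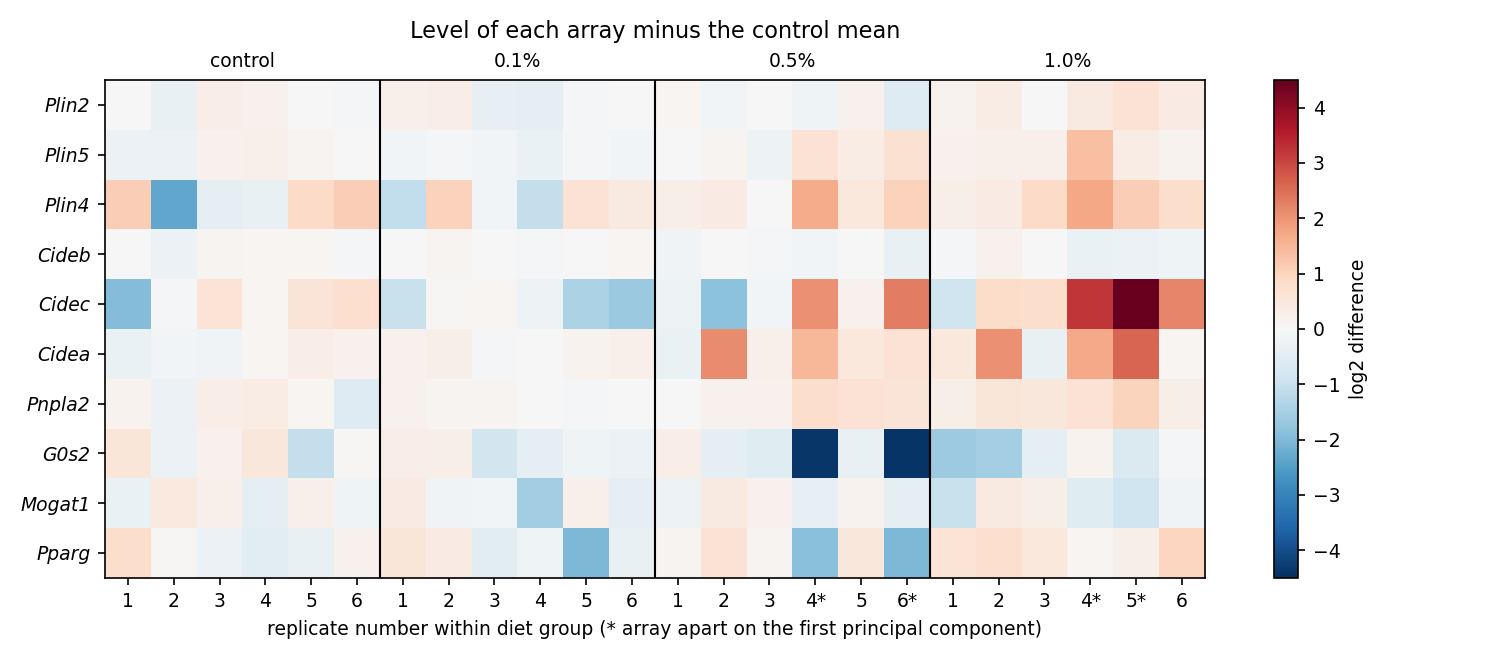
Rows are the 10 genes and columns the 24 arrays, ordered by diet and replicate, with arrays apart starred, and colour gives the log2 level minus the control mean (red higher, blue lower; the scale ends at 4.5 either way). Cidec is darkest red in replicates 4 and 5 at 1.0% (5.68 and 6.97), and G0s2 darkest blue in replicates 4 and 6 at 0.5% (5.79 and 5.76), where Pparg is also blue (1.34 and 1.22).

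Pparg ran from 2.77 to 4.04 in control (median 3.13), 1.22 to 3.78 at 0.1% (median 2.96), 1.22 to 3.87 at 0.5% (median 3.36) and 3.33 to 4.21 at 1.0% (median 3.76). The 3 lowest arrays were replicate 5 at 0.1% and replicates 4 and 6 at 0.5%, and no 1.0% array was near the floor. At 1.0% Pparg was 0.52 above control (SE 0.449, adjusted p = 0.793) and 0.94 above 0.5% (SE 0.449, adjusted p = 0.801). Without the 4 arrays the first was 0.69 (SE 0.366), the second 0.34 (SE 0.401) and the slope 0.9 (SE 0.334, adjusted p = 0.446), against 0.61 (SE 0.413) with them.

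Mogat1, which adds a fatty acid to monoacylglycerol, ran from 3.28 to 4.15 in control (median 3.72), 2.14 to 4.06 at 0.1% (median 3.56), 3.29 to 4.11 at 0.5% (median 3.66) and 2.72 to 4.12 at 1.0% (median 3.35). All 4 groups overlapped. Its difference at 1.0% was -0.32 (SE 0.289, 95% interval -0.92 to 0.28, adjusted p = 0.808), and -0.12 (SE 0.326) without the 4 arrays.

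Promoters of 9 of the 10 members were found in the RefSeq table (mouse build GRCm38.p6), with 13 entries because Cidec, Plin5 and Pparg have several starts. The 250 bases before each start were searched on both strands. The nuclear receptor half-site, AGGTCA, was in 14.0% of 32851 mouse promoters and in 4 of the 13 member entries (Plin2, 1 of Plin5 and 2 of Pparg). Its spaced repeat, known as DR1 and searched as AGGTCANAGGTCA, was in 0.0335% of promoters and in 0 of the 13. The E-box, CACGTG, was in 6.02% and in 0 of the 13. The C/EBP core, TTGCAA, was in 5.34% and in 3 of the 13 (Plin2, 1 of Pparg and Mogat1). The E-box and the C/EBP core read the same on both strands, each repeat also counts as a half-site, and no matches overlapped within a member entry, those of Pparg lying in 3 different entries. The windows below are 60 bases with the matches or, where there is none, the last 60 before the start. They belong to members with an unadjusted p under 0.05 at 1.0% against control. Capitals mark the matches, and the half-site of Plin2 is on the opposite strand.
Plin2, chr4:86670250-86670309, strand minus: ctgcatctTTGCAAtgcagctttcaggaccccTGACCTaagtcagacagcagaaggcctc
Plin5, chr17:56117679-56117738, strand minus: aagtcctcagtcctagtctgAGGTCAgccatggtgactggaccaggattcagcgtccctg
Pnpla2, chr7:141455128-141455187, strand plus: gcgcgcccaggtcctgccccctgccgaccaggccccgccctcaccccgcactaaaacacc
Cidec, chr6:113435761-113435820, strand minus: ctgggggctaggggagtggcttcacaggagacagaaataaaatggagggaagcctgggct

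These matches describe the letters in these windows, and binding was not measured. Counted from the start, the window of Plin2 spans bases -250 to -191 and holds the half-site and the C/EBP core, and that of Plin5 spans -190 to -131 and holds the half-site. The windows of Pnpla2 and Cidec end at the start, and the Cidec window is that of 1 of its 2 starts.

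Across arrays, the Pearson r of pairs of members ran from -0.42, for Cidea and G0s2, to 0.61. Because the 4 arrays apart form a cluster, correlations were taken over the other 20, for all 45 pairs. They used the deviation of each array from the mean of its diet, pooled over diets. The largest was between Cideb and Pnpla2 (Pearson r = 0.61, permutation p = 0.00477, adjusted p = 0.208). Spearman's rho for this pair was 0.69 (permutation p = 0.00117). Its r was 0.59 once 2 arrays were dropped, those most distant from the median for the first gene named in the pair. Plin5 and Pnpla2 had r = 0.51 (permutation p = 0.0231, adjusted p = 0.208; rho = 0.56, permutation p = 0.0117), and r = 0.71 without the 2 farthest arrays. Plin2 and Plin5 had r = 0.52 (permutation p = 0.0185, adjusted p = 0.208; rho = 0.48, permutation p = 0.0325; r = 0.47 without 2). Cideb had r = 0.54 with Plin5 (permutation p = 0.013, adjusted p = 0.208; rho = 0.66) and r = 0.52 with Plin2 (permutation p = 0.0181, adjusted p = 0.208; rho = 0.52). With r = 0.43 for Plin2 and Pnpla2, every pair among the bright genes Cideb, Plin2, Plin5 and Pnpla2 was positive, from 0.43 to 0.61. None of the 45 passed an adjusted p of 0.05.

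**Figure D4:**
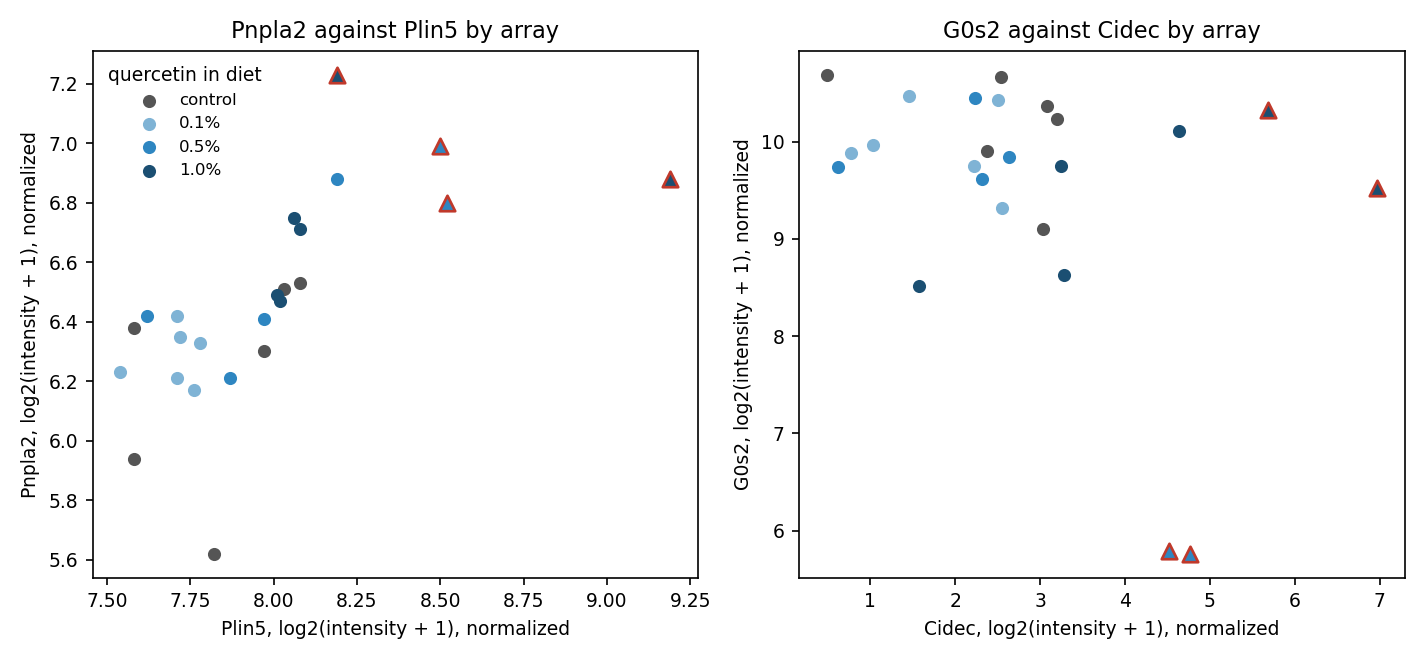
Each point is 1 array, coloured by quercetin in the diet, with red-edged triangles for the 4 arrays apart, and both axes are normalized log2(intensity + 1). The left panel sets Pnpla2 against Plin5. Over the 20 other arrays r = 0.51 for their deviations from the diet means, not for the plotted levels. The right panel sets G0s2 against Cidec, where the 2 arrays of 0.5% near 5.8 for G0s2 have Cidec at 4.52 and 4.77.

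Genes with a pattern over the 24 arrays like that of a dim or split member were named by Pearson's r, as a description. Only genes with a mean above that of the median gene were ranked, without the members and without clone or predicted-gene names. For Cidec they were Utp11 (0.88), Sf1 (0.87) and Srxn1 (0.86), with 0.69, 0.64 and 0.55 over the 20 arrays. For G0s2 they were Inhbe (0.87), Mid1ip1 (0.83) and Fgf21 (0.83), with 0.41, 0.41 and 0.75 over the 20. For Cidea they were Dcaf13 (0.76), Glrx (0.75) and Tnfrsf1a (0.75), with 0.54, 0.46 and 0.54 over the 20. For Pparg they were Hbp1 (0.79), Elmod3 (0.78) and Alkbh3 (0.74), with 0.59, 0.52 and 0.57. For Mogat1 they were Kif22 (0.76), Sdf2 (0.72) and Txn2 (0.71), with 0.73, 0.73 and 0.66. Apart from that of Mogat1 with Sdf2, each of these r values was smaller over the 20 arrays.

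Of 62 other symbols of the pathway in 4 lists, among them Agpat9 and Agpat6, older names of the listed Gpat3 and Gpat4, 53 were measured, and 1 of them, Lpin2, passed in at least 1 comparison. Lpin2 encodes a lipin, the phosphatidate phosphatase that makes diacylglycerol for triglyceride synthesis. It ran from 7.19 to 7.78 in control (median 7.35), 6.71 to 7.09 at 0.1% (median 6.88), 7.47 to 8.46 at 0.5% (median 8.02) and 7.43 to 8.46 at 1.0% (median 7.94). All 0.1% arrays lay below all others. Lpin2 was 1.05 higher at 0.5% than at 0.1% (SE 0.184, adjusted p = 0.0249) and 1.1 higher at 1.0% than at 0.1% (SE 0.184, adjusted p = 0.00668), and its test among the 4 diets passed (adjusted p = 0.0148). With the 4 arrays left out these were 0.87 (adjusted p = 0.0535, no longer passing) and 0.88 (adjusted p = 0.0269). As the mean of its probe sets, neither passed (adjusted p = 0.228 and 0.21). The first call was also lost when any 1 of 8 arrays was left out, with adjusted p up to 0.0676. Against control the difference at 1.0% was 0.56 (SE 0.184, adjusted p = 0.379), and 0.33 (SE 0.161) with the 4 arrays left out.

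The counts for the lists at an unadjusted p stand beside 9.49% of all genes among the 4 diets, and the counts above control at 1.0% beside 48.4% of all genes (median -0.00991). In the list of other droplet coat and assembly genes, 0 of 15 passed in either direction in any comparison. At an unadjusted p under 0.05 limma called 4 among the 4 diets, and 6 of 15 lay above control at 1.0% (median 0.0). Fitm2, which helps droplets bud from the endoplasmic reticulum, was 0.43 above 0.1% at 1.0% (SE 0.101, adjusted p = 0.0737) and 0.32 above control (SE 0.101, adjusted p = 0.365). Ldah, a droplet-bound hydrolase gene, was -0.38 from control at 1.0% (SE 0.117, adjusted p = 0.365), -0.12 at 0.5% and -0.35 at 0.1%. Acsl3, which activates fatty acids at droplets, was -0.55 at 0.5% against 0.1% (SE 0.15, adjusted p = 0.167). Against control it was 0.38 at 0.1%, -0.17 at 0.5% and 0.18 at 1.0%.

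Of other lipases and lipolysis cofactors 0 of 14 passed in either direction. With limma, 3 had an unadjusted p under 0.05 among the 4 diets, and 6 of 14 lay above control at 1.0% (median -0.01). Lpl, the lipoprotein lipase gene, was -0.7 at 0.5% against 0.1% (SE 0.172, adjusted p = 0.102). Ces1g, a liver carboxylesterase gene, was -0.46 there (SE 0.141, adjusted p = 0.236), and Lipa, which encodes lysosomal acid lipase, -0.32 (SE 0.123, adjusted p = 0.357). Against control at 0.1%, 0.5% and 1.0%, Lpl was 0.34, -0.37 and -0.06, Ces1g 0.23, -0.22 and 0.13, and Lipa 0.1, -0.22 and -0.19. Of other acylglycerol synthesis genes 1 of 13, Lpin2, passed, as higher at both upper doses than at 0.1%, and 0 of 13 passed as lower. The unadjusted p among the 4 diets was under 0.05 for 5, and 7 of 13 lay above control at 1.0% (median 0.0). Lpin1, a relative of Lpin2, was 2.09 above control at 1.0% (SE 0.749, adjusted p = 0.417) and 1.17 (SE 0.389) without the 4 arrays. At 0.5% Lpin1 was 2.33 above control (SE 0.749, adjusted p = 0.507) and 1.05 (SE 0.389) without the 4 arrays, and at 0.1% it was -0.2 from control. Gpat3, which starts glycerolipid synthesis, was 0.37 above control at 1.0% (SE 0.0983, adjusted p = 0.301).

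Of 11 other genes of the PPAR-gamma system 0 passed in either direction. Among the 4 diets 2 had an unadjusted p under 0.05 in limma, and 7 of 11 lay above control at 1.0% (median 0.06). Cebpb, a transcription factor that precedes PPAR-gamma in fat cell formation, was 1.39 higher at 0.5% than at 0.1% (SE 0.311, adjusted p = 0.0609) and 0.86 (SE 0.179, adjusted p = 0.0921) without the 4 arrays. The coactivator gene Ncoa1 was -0.48 at 1.0% against 0.1% (SE 0.123, adjusted p = 0.125). From control, Ncoa1 differed by 0.3 at 0.1%, 0.02 at 0.5% and -0.17 at 1.0%, and Cebpb by -0.35, 1.04 and 0.8. Aqp7, a glycerol channel gene, was near the floor on all arrays, at -0.9 from control at 0.5% (SE 0.369, adjusted p = 0.572).

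Of 7 adipocyte markers 5 were measured, and Adipoq, Retn, Lep and Ucp1 had means near the floor. Fabp4, an adipocyte gene also made by macrophages and endothelium, ran from 6.14 to 6.79 in control and from 6.33 to 8.75 at 1.0%. Its difference from control at 1.0% was 0.61 (SE 0.288, adjusted p = 0.551), and 0.2 (SE 0.162) without the 4 arrays apart. There Lep differed from control by 0.04 with all arrays, Ucp1 by -0.05, Adipoq by -0.52 and Retn by -0.56. Thus 2 of the 5 measured markers lay above control at 1.0% (median -0.05). The 5 arrays with Cidec above 4, of which 4 are the arrays apart, also had the 5 highest Fabp4 levels. These were 8.75 in replicate 5, 7.16 in replicate 6 and 6.93 in replicate 4 at 1.0%, and 7.28 and 6.97 in replicates 4 and 6 at 0.5%. The summed linear level of the adipocyte list is mostly that of Fabp4, the only measured marker of the list with a mean above the near-floor level. It therefore adds little to the values of Fabp4 alone. This sum ran from 73 to 118 in control, 80.9 to 122 at 0.1%, 82.7 to 163 at 0.5% and 82.6 to 434 at 1.0%. Adipoq reached at most 2.77 on any array and Lep 2.26. The sum of 5 neutrophil markers ran from 39.3 to 68.4 in control, 55.2 to 71.2 at 0.1%, 52.4 to 313 at 0.5% and 55 to 134 at 1.0%, and that of 7 Kupffer cell and macrophage markers from 875 to 1030, 967 to 1040, 836 to 956 and 794 to 983. The part of these cells in the levels of Cidec was not tested.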

How the data were processed

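For 24 arrays the authors deposited intensity values of 45101 probe sets, linear and never below 0, and per the labels' protocols each array held biotin-labelled cRNA of 1 mouse. The software that made these values is not given in the sources used here. Here log2(intensity + 1) was quantile-normalized over the whole table. Of its probe sets, 34945 had 1 gene symbol in the platform annotation and were used (932 had several, 9211 were not listed), and the one with the highest mean stood for each of 18193 genes. All arrays entered 1 fit in limma 3.58.1 (R 4.3.3, eBayes, two-sided, Benjamini-Hochberg over all genes, threshold 0.05). The p-values weigh a difference against the spread between mice. They take the mice as independent, although these were kept 3 per cage and cage was not in the fit. The fit was also run on simulated arrays with independent noise. That run held no arrays apart and no cages, so it cannot show how the tests fare with these. The members, gene lists and alternatives were chosen with earlier results of these data known. All members were named, with list genes that passed and the 3 of each list with the smallest p among diets. For 5 members the 3 genes with the highest r were named, from genes brighter than the median gene. Members and clone or predicted-gene names were skipped there. Correlations used 100000 permutations.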

Additional observations from a re-analysis of the deposited data

Results flagged for a closer look

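Arrays that stood far from the others of their diet were looked for in 40 groups, 10 genes in 4 diets of 6 arrays, by Dixon's ratio of the gap to the range. Chance flags about 1 in 20 groups, and 3 were found. Cidec in control replicate 1 was 0.49, with the nearest array at 2.37, both near the floor. Plin5 in replicate 4 at 0.1% was 7.54, with the nearest at 7.71. Plin5 in replicate 4 at 1.0%, one of the 4 arrays apart, was 9.19, with the nearest at 8.19.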

How the results depend on the processing

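With up to 11 alternatives and each of the 24 arrays left out, the count of members passing stayed at 0 in the 8 comparisons, except that it was 1 for the slope with a trended and robust variance (Pnpla2, 0.55, adjusted p = 0.0454). With the replicate number as a block it was 0 throughout. It was also 0 throughout with sets of 3 replicates of a diet, 1 to 3 and 4 to 6, as a random effect. Of 36 same-numbered pairs of arrays from different diets, 1 correlated above 0.1 (mean r 0.00487). Such pairs cannot show whether the arrays of a set share anything, and the 4 arrays apart all have numbers from 4 to 6. Members at an unadjusted p under 0.05 ran over all these fits from 0 to 3 at 0.5% and 2 to 5 at 1.0% against control, 0 to 3 for 0.5% against 0.1%, 3 to 7 for 1.0% against 0.1%, 0 to 3 for 1.0% against 0.5%, 0 to 6 for any difference and 4 to 6 for the slope, and were 0 at 0.1% in each. Without normalization the median of all genes moved from control by 0.111 at 0.1%, 0.146 at 0.5% and 0.0541 at 1.0%, and signs turned for Plin2 (0.03) and Plin4 (0.05) at 0.1% and for Cideb (0.11), Plin2 (0.07) and Mogat1 (0.09) at 0.5%. With arrays centred on medians they turned for Cideb at 0.1% (-0.01) and 0.5% (0.02) and Mogat1 at 0.5% (0), and with array weights for Mogat1 at 0.5% (0.03). Without the 4 arrays apart they turned at 0.5% for Cidec (-0.5), Plin2 (0.03), Pparg (0.35) and Mogat1 (0.12), and for Mogat1 for 1.0% against 0.1% (0.17) and the slope (0.05). Leaving out 1 array turned some signs at 0.1% for Cideb (-0.03 to 0.04), Plin2 (-0.13 to 0.02), Plin4 (-0.5 to 0.19) and Pnpla2 (-0.05 to 0.13), and for Mogat1 at 0.5% (-0.14 to 0.04) and for 1.0% against 0.1% (-0.29 to 0.1). None of these turned values had passed the test, and the cause was not tested. The 2 members left out by the filter on dim probe sets were Cidea and Cidec. Lpin2 for 1.0% against 0.1% passed in 24 of 24 fits with 1 array left out and in 8 of 11 alternatives (not without normalization, adjusted p = 0.134, with the mean of its probe sets, 0.21, or in fits of 2 groups, 0.0541), and for 0.5% against 0.1% in 16 of 24 and 8 of 11 (adjusted p from 0.0114 to 0.0676 with 1 array left out; it was lost without replicate 1, 2, 3, 5 or 6 at 0.1% or 4, 5 or 6 at 0.5%). Arrays near the floor limit what can be said of Cidea, Cidec, Plin4 and Pparg. The alternatives included adding 16 in place of 1 before the logarithm. Over them, the difference at 1.0% from control ran from 0.21 to 1.18 for Cidea and 0.73 to 1.91 for Cidec. It ran from 0.23 to 0.92 for Plin4 and 0.22 to 0.69 for Pparg.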
